A study of Homo sapiens with 12 samples.

Results

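RAD50, NBN, TP53BP1 and RRM2B are 4 human genes of the response to broken DNA, and they were described here across 12 expression arrays of Ishikawa cells. They were chosen by name, with earlier results of these arrays known, out of 14884 genes measured. Each was read from its probe set of highest mean signal over the 12 arrays, which for each of the 4 was the only probe set named for it. Ishikawa is an established cell line from a human endometrial adenocarcinoma, and the study's title concerns a feedback between MOF and ERα in endometrial cancer. KAT8 encodes MOF, which acetylates histones, and ESR1 encodes ERα, a nuclear receptor for oestrogen. The groups, of 3 arrays each, were labelled shMOF ERα(+), control ERα(+), shMOF ERα(-) and control ERα(-), where shMOF marks cells with a short hairpin RNA against MOF. What sets the ERα(+) condition apart from ERα(-), the hairpin's sequence, whether the hairpin cells were a pool or a clone, and whether replicates were separate cultures are not stated. All groups came from a single cell line, and p-values measure only the spread among replicate arrays, which could be technical.

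When both strands of DNA break, the MRE11, RAD50 and NBN proteins bind the ends as a complex and activate the ATM kinase. RAD50 is an ATPase of the SMC type with a long coiled coil that holds ends together, and NBN, mutated in Nijmegen breakage syndrome, links the complex to ATM. TP53BP1 (the protein 53BP1) is recruited to modified chromatin around the break and protects the ends from resection, which favours end joining over homologous recombination. RRM2B is the damage-inducible small subunit of ribonucleotide reductase, which supplies deoxynucleotides for repair and for mitochondrial DNA. MOF acetylates histone H4, a mark linked to the choice between these repair routes.

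The labels were checked first. KAT8 had log2 signals of 6.66, 6.66 and 7.02 on the shMOF ERα(+) arrays, against 6.80, 6.60 and 6.81 on the control ERα(+) arrays, and 6.78, 6.76 and 6.72 on the shMOF ERα(-) arrays, against 6.76, 6.87 and 6.68 on the control ERα(-) arrays. The groups overlapped in both conditions, so the targeted transcript was not detectably lower in the libraries labelled shMOF (log2 difference 0.04, 95% interval -0.23 to 0.31, in ERα(+), and -0.02, -0.29 to 0.26, in ERα(-)). ESR1, a dim probe set at the 27.1st percentile of tested genes, did not follow the ERα labels, so this check rests on a weak signal. Its signal ran from 4.27 to 4.28 in shMOF ERα(+), against 4.34 to 4.52 in shMOF ERα(-), and from 4.32 to 4.66 in control ERα(+), against 4.12 to 4.43 in control ERα(-). Every direction below is therefore between arrays as labelled. Of the 9 epithelial and endometrial markers measured, EPCAM at the 99.8th and PAX8 at the 99.3rd percentile of signal among tested genes were the highest. The lowest were KRT8 at the 63.7th, CLDN4 at the 63.1st and FOXA2 at the 58.9th percentile. The fibroblast genes DCN and LUM lay at or below the 3.2nd percentile, and the immune and endothelial genes CD14, PECAM1, VWF and KDR at or below the 29.1st. Averaged over its genes, the fibroblast list ran from 1.97 to 2.24 on shMOF ERα(+) arrays, against 1.98 to 2.21 on control ERα(+) arrays, and from 2.12 to 2.32 on shMOF ERα(-) arrays, against 2.06 to 2.23 on control ERα(-) arrays. The immune and endothelial list ran from 3.85 to 4.06, against 3.80 to 4.14, in ERα(+), and from 3.88 to 4.14, against 3.85 to 4.12, in ERα(-), shMOF before control.

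In the RefSeq annotation (GRCh38.p14), RAD50 spans 89373 bases of chromosome 5 (132556977 to 132646349) and TP53BP1 107580 bases of chromosome 15 (43403061 to 43510640).  The promoter windows of RAD50 and TP53BP1, 2 of the 4 genes matched in the RefSeq table, are printed to show what lies before the starts of these genes. Each holds the 250 bases before the annotated start, 5′ to 3′ on the gene's own strand, and capitals mark CCGGAA, the core bound by ETS transcription factors. The RAD50 window is chr5:132556727-132556976 on the plus strand and the TP53BP1 window chr15:43510641-43510890 on the minus strand.
RAD50: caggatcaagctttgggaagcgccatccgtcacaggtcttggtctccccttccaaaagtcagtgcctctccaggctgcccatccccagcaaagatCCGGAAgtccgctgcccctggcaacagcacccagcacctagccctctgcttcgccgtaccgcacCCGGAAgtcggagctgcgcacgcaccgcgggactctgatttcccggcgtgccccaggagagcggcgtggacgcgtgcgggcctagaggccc
TP53BP1: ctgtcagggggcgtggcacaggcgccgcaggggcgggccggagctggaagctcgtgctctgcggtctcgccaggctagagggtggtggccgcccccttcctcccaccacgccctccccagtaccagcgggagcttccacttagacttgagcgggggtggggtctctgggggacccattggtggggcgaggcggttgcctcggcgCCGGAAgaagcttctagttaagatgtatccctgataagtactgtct
RAD50 had 2 such matches, which end 149 and 85 bases before the start, and TP53BP1 had 1, which ends 40 bases before it. On either strand, 14.8% of 27305 promoter windows of this length hold CCGGAA. Of the other motifs searched on both strands, the CCAAT box (CCAAT, in 33% of windows) matched the TP53BP1 window in reverse complement. The E-box CACGTG (6.49% of windows) and the TATA box TATAAA (11.1%) matched neither. None of these motifs overlapped another in the windows, and both windows were rich in G and C (66.0% for RAD50 and 66.4% for TP53BP1), a content that 29.5% and 28.3% of windows reach. A match describes letters only.

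The signals of all 4 genes were above the median of tested genes. By mean over the 12 arrays, RAD50 was at the 90.6th percentile, RRM2B at the 82.9th, NBN at the 80.4th and TP53BP1 at the 72.9th. RRM2B varied over the widest range, from 6.86 to 8.48 on the log2 scale, or 3.08-fold between its dimmest and brightest arrays. NBN and RAD50 spanned 2.59-fold and 2.54-fold, and TP53BP1 only 1.42-fold.

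RAD50 had log2 signals of 8.64, 9.16 and 8.81 on the shMOF ERα(+) arrays, against 8.36, 8.61 and 7.82 on the control ERα(+) arrays. On the shMOF ERα(-) arrays it had 8.10, 8.98 and 8.42, against 8.36, 8.60 and 8.91 on the control ERα(-) arrays. In ERα(+) every shMOF array was above every control array, by 0.034 between the nearest arrays, whereas in ERα(-) the groups overlapped. NBN had 7.70, 8.14 and 7.86 on the shMOF ERα(+) arrays, against 7.61, 7.72 and 6.77 on the control ERα(+) arrays. Its shMOF ERα(-) signals were 7.34, 7.89 and 7.38, against 7.54, 7.72 and 7.90 in control ERα(-). NBN ordered the arrays much as RAD50 did, lowest on control ERα(+) replicate 3 and highest on shMOF ERα(+) replicate 2, but its groups overlapped in both conditions.

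TP53BP1 had log2 signals of 7.34, 7.33 and 7.23 on the shMOF ERα(+) arrays, against 6.97, 7.11 and 6.88 on the control ERα(+) arrays. On the shMOF ERα(-) arrays it had 6.87, 7.10 and 7.09, against 6.84, 7.07 and 7.24 on the control ERα(-) arrays. The shMOF ERα(+) arrays were close to each other (SD 0.060) and lay above all control ERα(+) and all shMOF ERα(-) arrays, while a single control ERα(-) array reached their lower end. RRM2B had 7.95, 8.48 and 7.98 on the shMOF ERα(+) arrays, against 7.29, 7.62 and 6.86 on the control ERα(+) arrays. Its shMOF ERα(-) signals were 7.51, 8.35 and 7.59, against 8.43, 7.97 and 8.03 in control ERα(-). The control ERα(+) arrays thus stood below both shMOF ERα(+), by 0.333 between the nearest arrays, and control ERα(-), by 0.351.

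**Figure D1:**
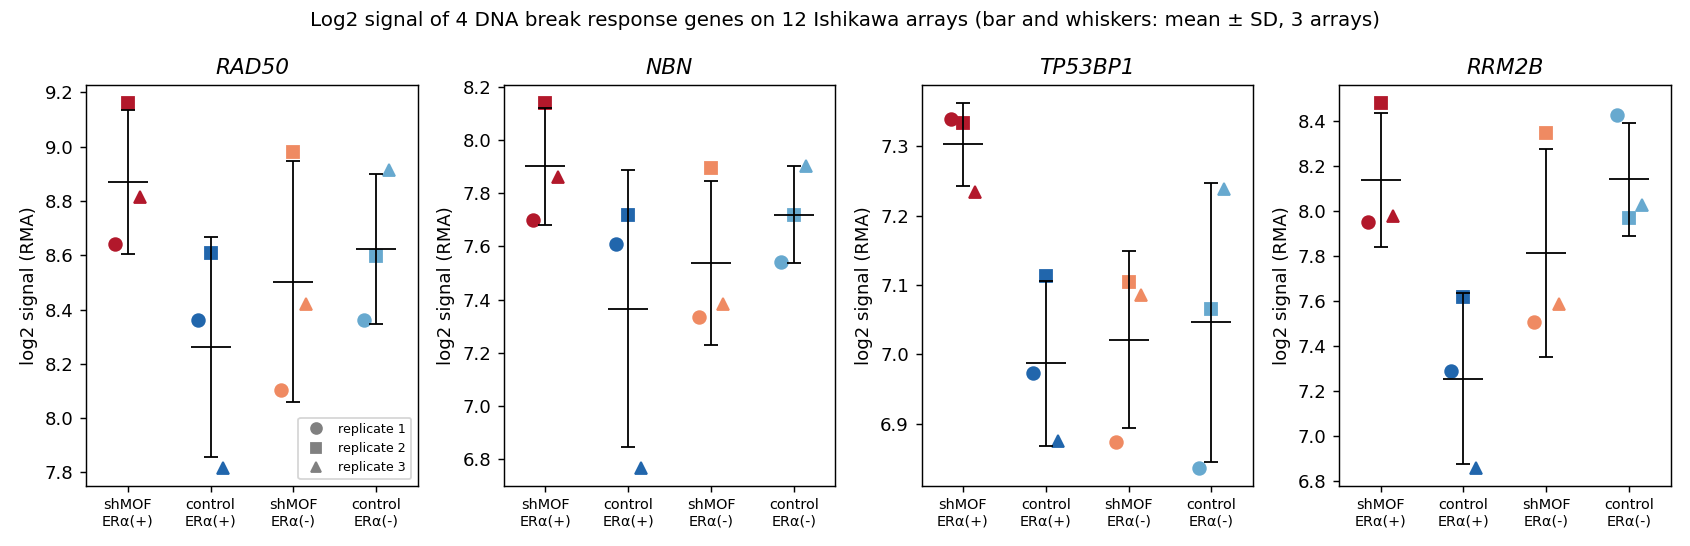
Log2 signal of each gene on every array, with 1 panel per gene, groups along the horizontal axis, marker shapes for replicates and a bar with whiskers for the mean ± SD of 3 arrays. In RAD50, TP53BP1 and RRM2B the shMOF ERα(+) arrays lie above the control ERα(+) arrays without overlap, and in NBN the lowest shMOF array, at 7.70, is just under the highest control array, at 7.72.

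In order of group means, RAD50 stood at 8.87 ± 0.27 in shMOF ERα(+), 8.62 ± 0.28 in control ERα(-), 8.50 ± 0.44 in shMOF ERα(-) and 8.26 ± 0.40 in control ERα(+) (SD, n = 3 each). NBN had the same order, at 7.90 ± 0.22, 7.72 ± 0.18, 7.54 ± 0.31 and 7.37 ± 0.52. For both genes, each step between neighbouring groups was smaller than the larger SD of the groups it separates. TP53BP1 again ran in this order, at 7.30 ± 0.06, 7.05 ± 0.20, 7.02 ± 0.13 and 6.99 ± 0.12, and only the step below shMOF ERα(+), of 0.256, was larger than both SDs. RRM2B differed in its order, with control ERα(-) at 8.14 ± 0.25 level with shMOF ERα(+) at 8.14 ± 0.30, then shMOF ERα(-) at 7.81 ± 0.46 and control ERα(+) at 7.26 ± 0.38. Its step down to control ERα(+), of 0.558, exceeded both SDs, while the other 2 steps did not.

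The comparison of shMOF with control arrays in ERα(+) was among those that led to the choice of these genes, and its values are a description. All 4 genes were higher in the shMOF ERα(+) arrays, as were 43.8% of all genes. The log2 difference was 0.61 ± 0.24 (SE) for RAD50, a 1.52-fold ratio with a 95% interval from 1.06 to 2.19. It was 0.54 ± 0.23 for NBN (1.45-fold, 1.03 to 2.04), 0.31 ± 0.13 for TP53BP1 (1.24-fold, 1.03 to 1.51) and 0.88 ± 0.24 for RRM2B (1.84-fold, 1.28 to 2.65). Of all tested genes, 0.336% had a difference as high as RRM2B or higher. The same share was 2.57% for RAD50, 4.13% for NBN and 12.7% for TP53BP1, with the median of all genes at -0.04. Limma called 0 of the 14884 genes at an adjusted p below 0.05 (percent called 0, smallest adjusted p = 0.0988). At an unadjusted p below 0.05, 10.2% of all genes were higher and 8.51% lower, and groups did not overlap upward for 12.2% of genes, among them 3 of the 4 genes described here. Without control ERα(+) replicate 3 the NBN difference was 0.237, and without both that array and shMOF ERα(+) replicate 2 the differences were 0.242 for RAD50, 0.118 for NBN, 0.244 for TP53BP1 and 0.512 for RRM2B. Leaving out both was chosen after seeing the data. In this bulk RNA, fewer cells with a transcript and less of it per cell cannot be told apart.

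In ERα(-), the comparison that shares no array with the one above, none of the 4 genes was higher in shMOF. Of all genes, 49.4% were above 0 there. The 4 genes varied together over the arrays, as described below, so their shared sign is not 4 separate observations. The log2 difference was -0.12 ± 0.24 (SE) for RAD50 (limma adjusted p = 0.966) and -0.18 ± 0.23 for NBN (limma adjusted p = 0.954). It was -0.03 ± 0.13 for TP53BP1 (limma adjusted p = 0.985) and -0.33 ± 0.24 for RRM2B (limma adjusted p = 0.953). The 95% intervals reached ratios of 1.32, 1.24, 1.19 and 1.15 in RAD50, NBN, TP53BP1 and RRM2B at their upper ends. Over all genes limma called 0 (percent called 0, 711 at an unadjusted p below 0.05). None of the 4 genes passed an unadjusted p of 0.05 in limma, where 2.1% of all genes were higher and 2.68% lower. The groups of all 4 overlapped, where 4.11% of all genes were apart upward and 4.66% downward. The sign for RAD50 and TP53BP1 turned when control ERα(-) replicate 3 (0.022 and 0.071) or shMOF ERα(-) replicate 1 (0.077 and 0.048) was left out.

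The mean difference of ERα(+) from ERα(-) had opposite signs with and without the hairpin. In the shMOF arrays all 4 genes were higher in ERα(+), by 0.37 ± 0.24 (SE) for RAD50, 0.36 ± 0.23 for NBN, 0.28 ± 0.13 for TP53BP1 and 0.32 ± 0.24 for RRM2B on the log2 scale, given as a description. Limma called 0 genes there (percent called 0), and groups did not overlap upward for 3.8% of all genes, TP53BP1 among them, and downward for 5.7%. At an unadjusted p below 0.05, 2.52% of genes were higher and 2.81% lower, and 45% of all genes were above 0 at any p. In the control arrays the means of all 4 were lower in ERα(+), where 49.6% of all genes were above 0. RRM2B differed by -0.89 ± 0.24 (SE), a ratio of 0.541 with a 95% interval from 0.376 to 0.778 (limma adjusted p = 0.333), and its 3 ERα(+) arrays all lay below its 3 ERα(-) arrays. The groups did not overlap downward for 8.92% of all genes and upward for 10.3%. RRM2B was the only one of the 4 to pass an unadjusted p of 0.05 in limma, as did 6.38% of all genes downward and 6.34% upward. Array quality weights gave shMOF ERα(-) replicate 3 a weight of 8.86 and the others between 0.359 and 3.70. Of the control ERα(+) arrays, replicate 1 had 3.70, against 0.5 and 0.449 for replicates 2 and 3. With these weights the RRM2B difference in control arrays was -0.79 (limma adjusted p = 0.0422), as 1 of 217 genes called by that setting. The weighted fit also called RRM2B for shMOF in ERα(+), among 1629 of the 14884 genes, and NBN for ERα in shMOF arrays, among 1918. For the interaction it called RAD50, NBN and RRM2B, among 3258 genes. All of these are comparisons with the arrays on which the genes were chosen, so the calls are no independent support. Over the alternatives run the RRM2B difference in control arrays ran from -1.07 to -0.38. RAD50 differed by -0.36 ± 0.24 (limma adjusted p = 0.52), NBN by -0.35 ± 0.23 (limma adjusted p = 0.507) and TP53BP1 by -0.06 ± 0.13 (limma adjusted p = 0.861). Without control ERα(+) replicate 3, the differences were -0.14 for RAD50, -0.055 for NBN, -0.004 for TP53BP1 and -0.688 for RRM2B. Without control ERα(-) replicate 3 they were -0.218 for RAD50 and 0.037 for TP53BP1, and without control ERα(-) replicate 1 the RRM2B difference was -0.743. Limma called 0 genes (percent called 0, 1894 at an unadjusted p below 0.05). This comparison uses the same control ERα(+) arrays as the first, which was among those that led to the choice of these genes. Its p-values for the 4 genes, weighted or not, are therefore not independent of that choice.

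The interaction subtracts the shMOF against control difference of ERα(-) from that of ERα(+). It was above 0 for all 4 genes, and for 46.5% of all genes, and again is a description. It was 1.21 ± 0.34 (SE) for RRM2B, with a 95% interval from 0.47 to 1.95. RAD50 had 0.73 ± 0.34 (-0.01 to 1.47), NBN 0.72 ± 0.33 (0.02 to 1.42) and TP53BP1 0.34 ± 0.18 (-0.05 to 0.73). Without control ERα(+) replicate 3 the NBN value was 0.419. Without that array and shMOF ERα(+) replicate 2, the values were 0.840 for RRM2B, 0.365 for RAD50, 0.3 for NBN and 0.269 for TP53BP1. Of all genes, 0.47% had an interaction as high as that of RRM2B, and limma called 0 (percent called 0, smallest adjusted p = 0.0697). At an unadjusted p below 0.05, 9.35% of all genes were above 0 and 8.69% below.

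**Figure D2:**
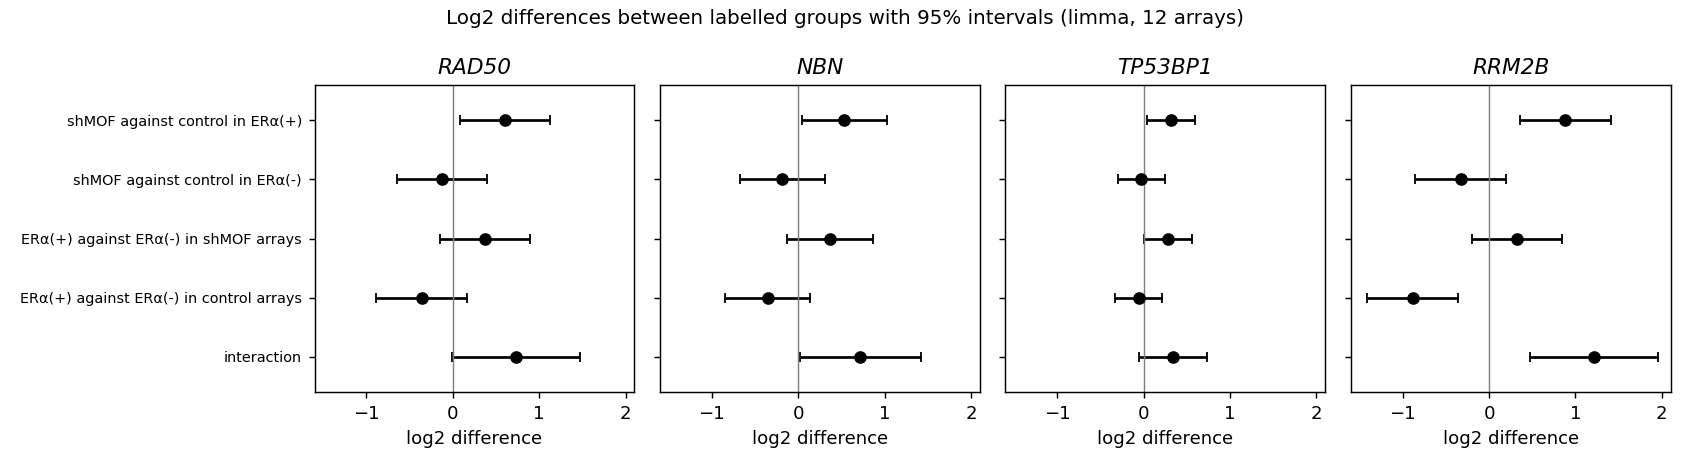
Log2 differences between groups for each gene (points) with 95% intervals (lines) from the limma fit to 12 arrays, with comparisons down the page and 0 as a grey line. All 4 genes are above 0 for shMOF against control in ERα(+), from 0.31 for TP53BP1 to 0.88 for RRM2B, and all are below 0 for shMOF against control in ERα(-).

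RAD50 and NBN, whose proteins sit in the same complex, had nearly the same profile over the 12 arrays. Their Pearson r was 0.956 (Spearman's rho 0.951), it was 0.936 after the group means were subtracted, and it was 0.934 without control ERα(+) replicate 3 and shMOF ERα(+) replicate 2, the arrays farthest from the RAD50 median. The difference between their log2 signals varied by an SD of only 0.112 over the arrays, against SDs of 0.380 for RAD50 and 0.354 for NBN. The pair was not alone in such likeness, since 1.32% of all genes had an r with RAD50 as high as NBN, and 0.309% had an r with NBN as high as RAD50.

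TP53BP1 followed RAD50 at r = 0.81 (rho 0.846) and NBN at r = 0.725 (rho 0.741). RRM2B followed RAD50 at r = 0.793 (rho 0.713) and NBN at r = 0.798 (rho 0.741). Without the same 2 arrays, RRM2B was at 0.544 with RAD50 and 0.492 with NBN, so that part of this likeness rested on them. TP53BP1 and RRM2B were the least alike (r = 0.46, rho 0.392, and 0.24 after the group means were subtracted), but reached 0.814 without control ERα(-) replicate 1 and shMOF ERα(+) replicate 1. On control ERα(-) replicate 1, RRM2B was at 8.43, the highest of its group, while RAD50, NBN and TP53BP1 were the lowest of theirs. This array also stood apart over all tested genes. It scored 31.9 on their second principal component, which held 14% of the variance, while the other arrays scored from -12.2 to 3.75. The 12 arrays share normalization, and the r values are given as a description with no test. The mean over the 6 pairs was 0.757, and 0.864 without control ERα(-) replicate 1.

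**Figure D3:**
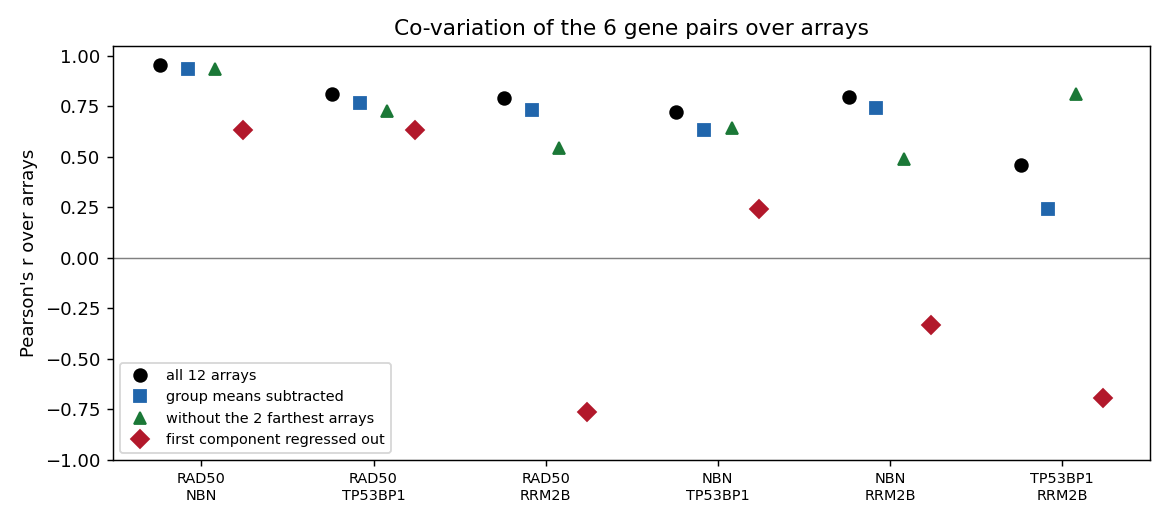
Pearson's r over arrays for the 6 pairs of genes (vertical axis), for all 12 arrays, after subtraction of group means, without the 2 arrays farthest from the median of the first gene, and after the first principal component was regressed out. RAD50 and NBN stay between 0.635 and 0.956 in these 4 settings, while the 3 pairs with RRM2B turn below 0 in the last. Without control ERα(-) replicate 1 (not drawn), those pairs were closer to 0, at -0.29 with RAD50, -0.03 with NBN and -0.291 with TP53BP1.

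The shared profile was also that of the arrays as a whole. The first principal component of the 14884 genes held 36.8% of their variance and ran from -32.9 on control ERα(+) replicate 3 to 29.8 on shMOF ERα(+) replicate 2. The shMOF ERα(+) arrays had scores of 4.40, 29.8 and 9.85, against -13.3, -3.60 and -32.9 for the control ERα(+) arrays. The shMOF ERα(-) arrays had -22.3, 18.0 and -9.69, against 4.22, 3.58 and 11.9 for the control ERα(-) arrays. RAD50 correlated with this component at r = 0.959, NBN at 0.925, RRM2B at 0.917 and TP53BP1 at 0.714, over 12 arrays. It shared 92.0% of the variance of RAD50 and 51.0% of that of TP53BP1. Of all genes, 1.68% had an r with the component at or above that of RAD50 and 13.9% at or above that of TP53BP1. The sign of a component is arbitrary, and here it was set so that RAD50 correlates positively. Genes tied as closely with a negative r are not in these shares.

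With the component as a covariate, the shMOF difference in ERα(+) was -0.12 for RAD50, -0.11 for NBN, 0.14 for TP53BP1 and 0.20 for RRM2B on the log2 scale. Thus RAD50 and NBN turned in sign, and TP53BP1 and RRM2B kept theirs at a smaller size. The component separates the shMOF and control ERα(+) arrays, so its covariate also takes out part of the comparison, and what lies behind the component was not tested. After it was regressed out, RAD50 and NBN still correlated at 0.635, and at 0.616 without control ERα(-) replicate 1. RAD50 and TP53BP1 stood at 0.632, but at 0.031 without that array, and NBN and TP53BP1 at 0.243, but at -0.075 without it. RAD50 and RRM2B then stood at -0.765, and at -0.29 without that array, on which RRM2B lay 0.484 above the line and RAD50 0.291 below it (a residual of -0.291). Without that array, NBN and RRM2B went from -0.331 to -0.03, and TP53BP1 and RRM2B from -0.696 to -0.291.

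**Figure D4:**
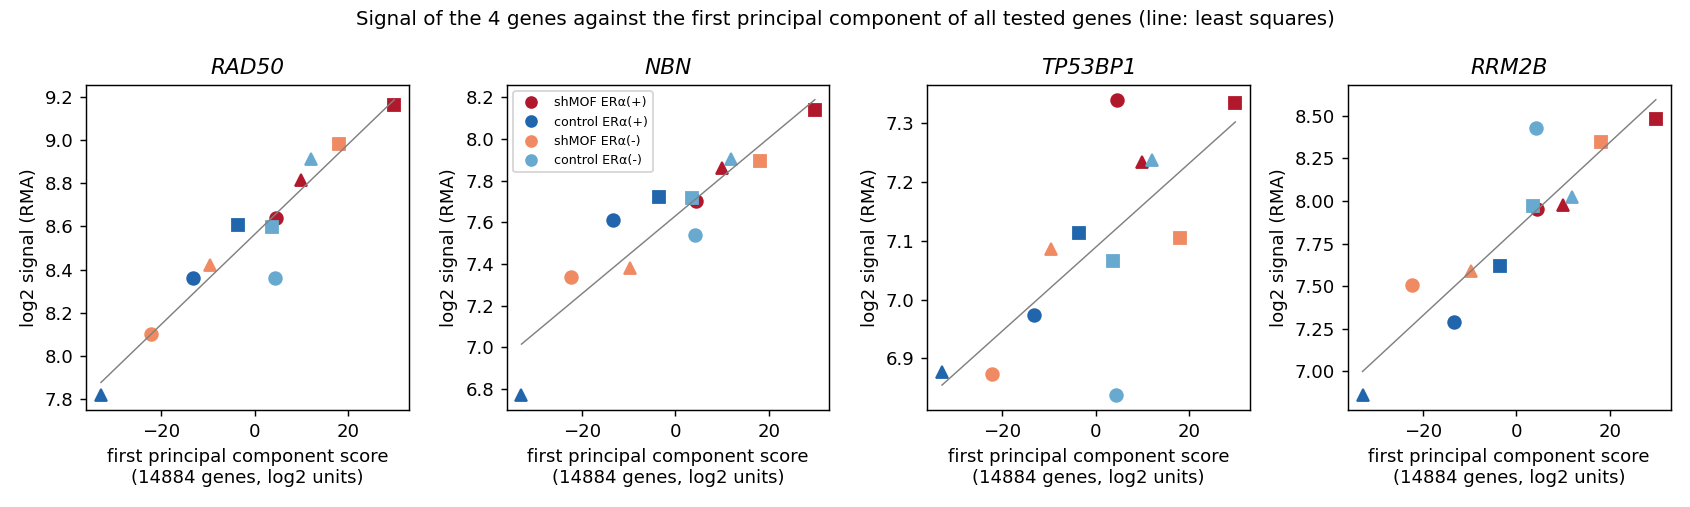
Log2 signal of each gene (vertical axis) against the score of each array on the first principal component of 14884 genes (horizontal axis), with colours for groups, marker shapes for replicates and a least-squares line. RAD50 follows the line most closely (r = 0.959), TP53BP1 least (r = 0.714), and control ERα(-) replicate 1 lies above the line for RRM2B and below it for the other 3 genes.

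The other genes of the break response were described from lists chosen with earlier results known, leaving out the 4 genes themselves. Genes of these lists that the annotation used here does not name were not analysed. Of the MRN complex and its kinases, 4 of the other genes were measured, with a median log2 difference of 0.12 for shMOF against control in ERα(+), where all genes had -0.04. In that comparison 43.8% of all genes were above 0, the share to set beside the counts of each list below. The nuclease MRE11, the partner of RAD50 and NBN, had signals of 6.80, 7.35 and 6.97 on the shMOF ERα(+) arrays, against 6.61, 7.01 and 6.14 on the control ERα(+) arrays. These overlapped (0.46 ± 0.24, SE), and over the 12 arrays MRE11 correlated with RAD50 at r = 0.905, with NBN at 0.889, with RRM2B at 0.913 and with TP53BP1 at 0.562. The checkpoint kinase ATR was at 0.59 ± 0.27, whereas its partner ATRIP was at -0.22 ± 0.14 and the telomere protein TERF2 at -0.21 ± 0.10.

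Genes that act with 53BP1 on chromatin lay on both sides of 0. Of 8 measured, 3 were above 0 and 5 below (median -0.11 on the log2 scale), and 2 were higher at an unadjusted p below 0.05 (10.2% of all genes). These were RIF1, which 53BP1 recruits to block resection, at 0.70 ± 0.25 (SE) and USP28, a deubiquitinase that binds 53BP1, at 0.37 ± 0.16. PAXIP1, another partner of 53BP1, was at 0.07 ± 0.14. Below 0 were MDC1, the reader of phosphorylated H2AX (-0.19 ± 0.11), MAD2L2, a shieldin subunit (-0.26 ± 0.13), the acetyltransferase KAT5 (-0.28 ± 0.15), NUDT16L1, which masks the 53BP1 Tudor domain (-0.21 ± 0.13), and the histone H4 methyltransferase KMT5A (-0.03 ± 0.10). RIF1 correlated with TP53BP1 at r = 0.759 over the arrays and with RAD50 at 0.966.

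Homologous recombination genes had 9 of 13 measured above 0 in the same comparison and a median log2 difference of 0.28. At an unadjusted p below 0.05, 7 were higher and 1 lower, against 10.2% and 8.51% of all genes. RAD52 was at 0.30 ± 0.11 (SE), DNA2, a nuclease of end resection, at 0.44 ± 0.18, RAD51B at 0.43 ± 0.18 and the helicase BRIP1 at 0.51 ± 0.21. Of 4 end joining genes, 3 were above 0 (median 0.27), with the nuclease DCLRE1C (Artemis) at 0.63 ± 0.16, the Ku subunits XRCC5 at 0.25 ± 0.12 and XRCC6 at -0.06 ± 0.10, and XRCC4 at 0.29 ± 0.22. Checkpoint genes were mixed, with 9 of 14 above 0 (median 0.08) and 3 higher and 2 lower at an unadjusted p below 0.05. The clamp loader RAD17 was at 0.65 ± 0.21, TOPBP1 at 0.63 ± 0.23, MDM4 at 0.36 ± 0.13 and RAD9A at -0.35 ± 0.16. In each of these lists 0 genes passed at a limma adjusted p below 0.05.

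Of the other genes of ribonucleotide supply, 3 were above 0 and 3 below in this comparison (median 0.06). The large subunit RRM1 was at 0.14 ± 0.12 (SE), and RRM2, the small subunit of dividing cells, at -0.06 ± 0.10. RRM2 had signals of 8.66, 8.52 and 8.69 on the shMOF ERα(+) arrays, against 8.77, 8.61 and 8.69 on the control ERα(+) arrays, and its r with RRM2B over the 12 arrays was -0.222. SAMHD1, which degrades deoxynucleotides, was at 0.50 ± 0.16, the thymidylate synthase TYMS at -0.30 ± 0.13, DCK at 0.19 ± 0.11 and DUT at -0.01 ± 0.18.

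Of the SMC ATPases, the family to which RAD50 is related, 5 of 6 were above 0 with a median of 0.69, and the same 5 were higher at an unadjusted p below 0.05 (10.2% of all genes). SMC6 was at 0.82 ± 0.27 (SE), SMC5 at 0.83 ± 0.29, the condensin subunit SMC2 at 0.65 ± 0.23 and the cohesin subunit SMC3 at 0.72 ± 0.26, while the cohesin subunit SMC1A was at -0.01 ± 0.11. The median r of the 6 genes with the 4 break response genes was 0.869, against -0.131 for all genes. Cytosolic ribosomal proteins had 42 of 45 genes below 0 and a median of -0.16. Their mean ran from 8.30 to 8.43 on shMOF ERα(+) arrays, against 8.46 to 8.59 on control ERα(+) arrays, and correlated with RAD50 at r = -0.801 over the 12 arrays. Epithelial and endometrial markers had 8 of 9 genes below 0 (median -0.34), among them KRT18 at -0.43 ± 0.15 and FOXA2 at -0.39 ± 0.16, and ran from 8.14 to 8.44, against 8.49 to 8.72 in control ERα(+), with r = -0.812 to RAD50. The part of either list in the values of the 4 genes was not tested.

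In ERα(-) the medians of shMOF against control ran from -0.14 for the SMC genes to 0.2 for the epithelial and endometrial markers, of which 8 of 9 were above 0, and stood at 0.075 for the ribosomal proteins. The ERα(+) medians were also computed without the extreme arrays of the first component. Without control ERα(+) replicate 3 and shMOF ERα(+) replicate 2, the SMC median was 0.289 with 0 genes at an unadjusted p below 0.05. The homologous recombination median was then 0.077 with 1 gene higher, and the median of the other MRN and kinase genes was -0.051. End joining still had 1 gene higher (median 0.031). The medians of the epithelial and endometrial markers and of the ribosomal proteins were -0.115 and -0.085. The share of all genes higher at this p was then 1.98%. With the component as a covariate, the medians were -0.085 for the SMC genes, -0.011 for homologous recombination, -0.164 for the MRN and kinase genes and -0.009 for end joining. They were -0.069 for the epithelial and endometrial markers and -0.019 for the ribosomal proteins.

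**Figure D5:**
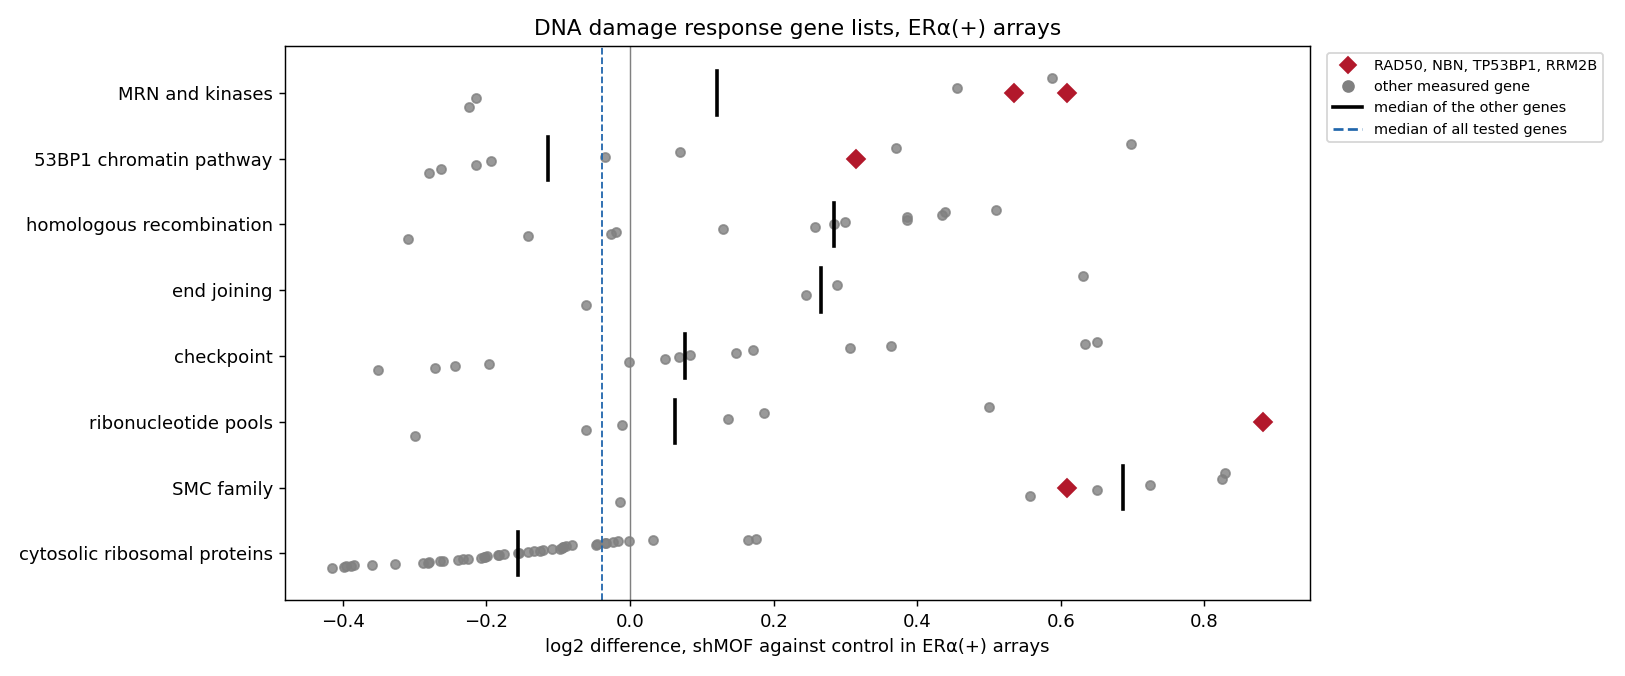
Log2 differences for shMOF against control in ERα(+) of single genes (grey points), of RAD50, NBN, TP53BP1 and RRM2B in the lists that hold them (red diamonds), and the median of the other genes of each list (black bars), beside the median of all tested genes (dashed line). Of the 8 lists drawn, which leave out the 3 lists of cell type markers, the SMC genes have the highest median, at 0.69, and the ribosomal proteins the lowest, at -0.16. The epithelial and endometrial markers, not drawn, have a lower median of -0.34.

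The genes most like each of the 4 were sought by Pearson r over the 12 arrays among the 7438 other genes at or above the median signal. Nearest to RAD50 were IBTK (0.994), PPIP5K2, U2SURP, SDAD1 and ECT2 (0.988). Nearest to NBN were MPHOSPH10 (0.981), SRP54, RRM1 (0.976), ERGIC2 and CEP128 (0.972). The large reductase subunit RRM1 was thus closer to NBN in its pattern than to RRM2B (0.759), though its signal ran only from 9.53 to 9.97. TP53BP1 was most like ZNF512 (0.958), SND1-IT1, LOC100288637, SRPK1 and ZNF441 (0.941), and RRM2B was most like SECISBP2L (0.973), FOXN2, BRWD3, PHF3 and ERBIN (0.970). The nearest genes of the 4 did not coincide. By mean r with all 4, ECT2 (0.897), PPIP5K2 (0.896) and the mitotic kinesin KIF11 (0.894) were highest, and NEK6 (-0.873), the exosome subunit EXOSC5 (-0.872) and MTMR14 (-0.872) lowest.

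Neighbours on the chromosome were taken by position and not by likeness. Their r with the gene they lie near ran from -0.826 to 0.724. The median mean r of all genes with the 4 was -0.131, but that averages over 4 genes and is not a like measure. Beside RAD50 lie IL13 (r = -0.366), IL4 (-0.345) and IRF1 (-0.826). NBN had r = 0.56 with OSGIN2, next to it, and 0.642 with RIPK2. TP53BP1 had -0.338 with MAP1A, 0.305 with ZSCAN29 and -0.034 with PPIP5K1. RRM2B had 0.724 with NCALD, whose log2 difference for shMOF against control in ERα(+) was 0.76 ± 0.22 (SE), but 0.393 with GRHL2, at 0.03 ± 0.12, and 0.333 with the dim ODF1.

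On chromosome 8, NBN spans 51337 bases (89933331 to 89984667) and RRM2B 34461 bases (102204501 to 102238961). The 4 genes have spans from the 62.8th percentile of tested genes for RRM2B to the 86.1st for TP53BP1. Among the 3719 genes with the longest spans, from 58.4 kb upward, 61.0% were above 0 for shMOF against control in ERα(+) (median 0.07), against 31.9% of the 3720 with the shortest, up to 6.1 kb (median -0.11). The median of the mean r with the 4 genes was 0.174 among the longest and -0.25 among the shortest. Genes are not independent replicates, and across 14883 of them the span correlated with the difference at a Spearman's rho of 0.274. Its part in the results for the 4 genes was not tested.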

How the data were processed

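RNA of 12 Ishikawa samples, in 4 labelled groups of 3, was measured on expression arrays. The authors deposited RMA signals in log2 units, from Expression Console 1.4.1 (tools per the submitters' processing notes). RMA corrects background, equalises the arrays' distributions and can compress differences of dim genes. The build behind the probe sets is not given in the sources used here. Of 53617 probe sets, 16098 had 1 gene symbol, 0 had several and 37519 were unnamed here, and the probe set of highest mean stood for each of 14884 genes, all tested. Group means were fitted with limma 3.58.1 in R 4.3.3 (lmFit, eBayes, two-sided, 8 residual and 5.60 prior degrees of freedom), with Benjamini-Hochberg adjustment over all genes and a threshold of 0.05. The fit was tested on simulated data with independent noise for each gene and array, without the shared first component of these arrays. Correlations used NumPy 2.4.6 and SciPy 1.17.1. The number of arrays limits the precision.

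The members, lists and alternatives were chosen with earlier results of these data known. Named genes were the 4 members, KAT8 and ESR1, the 5 genes most like each member and the 3 highest and lowest by mean r, up to 4 genes per list of smallest p in ERα(+) (all of them for 3 lists), and chromosome neighbours. SMC1A and the cell type markers were named after their values were seen. A further gene list is not reported here. Alternatives covered probe sets, filter, scaling, variance trend, array weights, samples fitted, replicate block, the first component and each array left out.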

Additional observations from a re-analysis of the deposited data

How the results depend on the processing

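Counts of genes called by limma, 0 in all 5 comparisons, became 1629 (shMOF in ERα(+)), 645 (shMOF in ERα(-)), 1918 (ERα in shMOF arrays), 217 (ERα in control arrays) and 3258 (interaction) with array quality weights. The highest weight, 8.86, was that of shMOF ERα(-) replicate 3, which is not among the arrays compared for shMOF in ERα(+) or for ERα in control arrays. In those comparisons control ERα(+) replicate 1 had a weight of 3.70, against 0.5 and 0.449 for replicates 2 and 3. Leaving out 1 array at a time gave 0 to 30, 0 to 5, 0 to 11, 0 to 4 and 0 to 570 in the same order, the highest each without shMOF ERα(-) replicate 2. With only the groups compared, ERα in control arrays had 9. Without both end arrays of the first component, shMOF in ERα(+) and the interaction had 1 each. In ERα(+), leaving out 1 array moved the shMOF difference between 0.387 and 0.781 for RAD50, 0.237 and 0.712 for NBN, 0.260 and 0.378 for TP53BP1 and 0.684 and 1.06 for RRM2B. Without both end arrays, RAD50, NBN and RRM2B were at 0.242, 0.118 and 0.512.

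The first component as a covariate took the differences in ERα(+) to -0.121 (RAD50), -0.107 (NBN), 0.141 (TP53BP1) and 0.198 (RRM2B), and turned those of RAD50, NBN and TP53BP1 in ERα(-) to 0.139, 0.048 and 0.037. For ERα it turned RAD50, NBN and RRM2B in shMOF arrays to -0.082, -0.033 and -0.098, and RAD50, NBN and TP53BP1 in control arrays to 0.179, 0.122 and 0.070. The interactions of RAD50 and NBN turned to -0.26 and -0.155, and those of TP53BP1 and RRM2B were 0.104 and 0.282. The mean r of the 6 pairs turned to -0.047. That r was 0.577 without both end arrays and 0.677 to 0.864 without 1 array. List medians turned to -0.164 (MRN and kinases), -0.011 (homologous recombination), -0.009 (end joining), -0.029 (checkpoint), -0.01 (ribonucleotide pools) and -0.085 (SMC), and without both end arrays to -0.051 (MRN and kinases). Leaving out 1 array in ERα(-), the shMOF difference ran from -0.362 to 0.077 for RAD50 and -0.13 to 0.071 for TP53BP1, with 0.022 and 0.077 (RAD50) and 0.071 and 0.048 (TP53BP1) without control replicate 3 and shMOF replicate 1. TP53BP1 for ERα in control arrays turned to 0.037 without control ERα(-) replicate 3. The causes were not tested.

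Arrays with the same replicate number mostly did not deviate together (5 of 18 pairs above 0.1, 4 of 12 arrays closest to their own number), so the numbers are not taken as pairs. The replicate 2 arrays were in part an exception. Their deviations correlated at 0.453 between shMOF ERα(+) and shMOF ERα(-), and at 0.378 between shMOF ERα(+) and control ERα(+). Between control ERα(+) and shMOF ERα(-) they stood at 0.239, and with control ERα(-) between -0.179 and 0.074. Above 0.1 as well were replicate 1 between shMOF ERα(+) and shMOF ERα(-), at 0.265, and replicate 3 between shMOF ERα(+) and control ERα(+), at 0.174. What these arrays share was not tested. With the replicate block the interaction had 2 calls and the other comparisons 0. Both end arrays and the list settings were chosen after seeing the data.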
